A study of Mus musculus with 6 samples.

Results

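The lysosomal genes described here were 36 genes chosen by name: 9 enzymes and cofactors of sphingolipid degradation, 9 enzymes that take apart other sugar chains, 8 proteases, 5 proteins of lipid release, cholesterol export and progranulin function, 4 proteins of the lysosomal membrane, and the transcription factor Tfeb. All 36 were found among the 20173 genes of the deposited count table, and 35 of them had a CPM (counts scaled to the library total) of at least 1 in at least 3 libraries and so were among the 12152 genes tested. The list was built around Asah1, which encodes acid ceramidase, and the question was whether the higher Asah1 level in Slit2-deleted cultures was shared by other genes of the lysosome. RNA had been sequenced from primary neurons cultured for 4 to 5 days in neural medium with B27 from male mice aged 3 weeks, by the study's account out of their sympathetic chains, and each genotype had 3 libraries. The control genotype was Slit2fl/fl (SLIT2f/f in the sample labels), which carries loxP-flanked Slit2 alleles. The other was Slit2th (SLIT2-knockout in the labels), in which the same alleles are deleted by a Cre recombinase driven by the promoter of Th, the gene of tyrosine hydroxylase. The material is not certain, since the study's isolation method names dorsal root neurons while the labels name sympathetic ganglion. Nothing in the sources states that the 3 libraries of a genotype came from separate mice or cultures, so the p-values measure only the spread between these libraries.

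Lysosomes are acidic organelles in which hydrolases break down lipids, sugar chains, proteins and nucleic acids delivered by endocytosis and autophagy. A proton pump in the lysosomal membrane keeps the pH low, heavily glycosylated proteins such as LAMP1 and LAMP2 line the membrane, and most soluble hydrolases are carried there with a mannose 6-phosphate tag. Many lysosomal genes share a promoter element, GTCACGTG, that is bound by TFEB and its relatives TFE3 and MITF, and loss of single hydrolases causes lysosomal storage diseases in which neurons are often affected.

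Because a common promoter element is the best-known link between these genes, their promoters were searched for it on both strands, from 250 bases before to 50 bases after the annotated start (RefSeq, GRCm38.p6). A promoter was found for 32 of the 36 genes, all but Asah1, Ctsb, Ctsh and Npc1. GTCACGTG, or CACGTGAC on the other strand, was present for 8 of the 32 genes (25%), against 2.55% of the 27025 genes with a promoter in the same set. The shorter CACGTG, which both of these words contain, was present for 10 of the 32 (31.2%), against 8.09% of all genes. The 8 genes are shown as 30 bases around 1 element each, with the element in capitals, read 5′ to 3′ on the strand of the gene.
Arsa: ttcaactcagtGTCACGTGttgtctgctcc
Ctsa: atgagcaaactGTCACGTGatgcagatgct
Ctsd: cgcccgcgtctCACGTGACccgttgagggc
Gla: gtgagatctcgGTCACGTGagcaactctcg
Glb1: gctgcttctgaGTCACGTGgcctacagagg
Lamp1: atgccgactggCACGTGACcacatcacgtg
Mcoln1: ggcgccccgctCACGTGACcgcggcgcatg
Naglu: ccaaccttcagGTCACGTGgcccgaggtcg

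On GRCm38.p6 the windows lie at chr15:89477424-89477453 (minus strand) for Arsa, chr2:164833748-164833777 (plus) for Ctsa, chr7:142387907-142387936 (minus) for Ctsd and chrX:134601183-134601212 (minus) for Gla. Those of the other 4 lie at chr9:114401017-114401046 for Glb1, chr8:13159122-13159151 for Lamp1, chr8:3500463-3500492 for Mcoln1 and chr11:101070008-101070037 for Naglu, all on the plus strand. Counted from the annotated start, the first base of the element is at -18 for Arsa, -14 for Ctsa, -98 for Ctsd, -196 for Gla, -50 for Glb1, -28 for Lamp1, -45 for Mcoln1 and -75 for Naglu. A second element lies in the searched promoters of Ctsa, Ctsd and Mcoln1. These matches describe the letters only, and nothing in the data measured binding there.

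The libraries held 3155406, 1533367 and 1769545 counts for Slit2fl/fl (replicates 1 to 3) and 1255939, 1999485 and 1679503 counts for Slit2th, so that 3 counts of a gene corresponded to between 0.951 and 2.39 CPM. Slit2 itself stood at 44.4, 55.0 and 43.7 CPM in Slit2fl/fl and at 15.0, 11.4 and 15.2 CPM in Slit2th, in the direction of the labels. Among the sympathetic neuron markers in the table, Th, Nefh and Rbfox3 were at 0 in all 6 libraries and the 2 highest were Tubb3 (74.8 to 289 CPM) and Uchl1 (36.9 to 235 CPM), while 17 glia markers summed to 6943 to 12714 CPM in Slit2fl/fl and to 14631 to 21364 CPM in Slit2th. The lysosomal values thus describe whole cultures, in which fewer cells of a type and less RNA per cell cannot be told apart. The replicates numbered 1 stood apart in both groups: their Pearson correlations (log2 CPM, over genes) were 0.841 to 0.868 with the other libraries of their own group, against 0.937 (Slit2fl/fl) and 0.965 (Slit2th) between replicates 2 and 3. The 13 mitochondrially encoded genes summed to 47154 CPM in Slit2fl/fl replicate 1 and to 108887 to 138504 CPM in the other 5 libraries. Values without 1 or both of these libraries are therefore given for many of the genes below.

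The lysosomal genes did not lie higher as a group in Slit2th than in Slit2fl/fl. Of the 35 tested, 13 had a log2 fold change (LFC, Slit2th over Slit2fl/fl) above 0 and 22 below it, and their median was -0.21, or -0.25 without Asah1, beside a median of -0.05 and 47.8% positive values over all genes tested. Without Slit2fl/fl replicate 1 the split was 21 above and 14 below and the median 0.075, with 52.3% positive values over all genes. With edgeR's quasi-likelihood test, 0 of the 35 and 0 of all 12152 genes had a Benjamini-Hochberg adjusted p under 0.05, and with DESeq2, which gave an adjusted p for 31 of the 35 and 8482 of all genes, 0 and 31 (0.365%) did. At an unadjusted p under 0.05 none of the 35 was higher (0%, against 3.99% of all genes) and 2 were lower, Idua and Naglu (5.71%, against 6.78% of all genes). In 4 genes, Asah1, Ctsb, Ctsl and Tpp1, all Slit2th libraries exceeded all Slit2fl/fl libraries (8.72% of all genes did so), and in 4 others, Psap, Idua, Naglu and Gusb, all Slit2th libraries lay below them (9.74% of all genes). The biological coefficient of variation was 50.4%, so the standard errors (SE) of single lysosomal genes ran from 0.30 (Scarb2) to 1.26 (Manba) on the log2 scale. Differences within these errors were not detectable with these libraries.

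**Figure D1:**
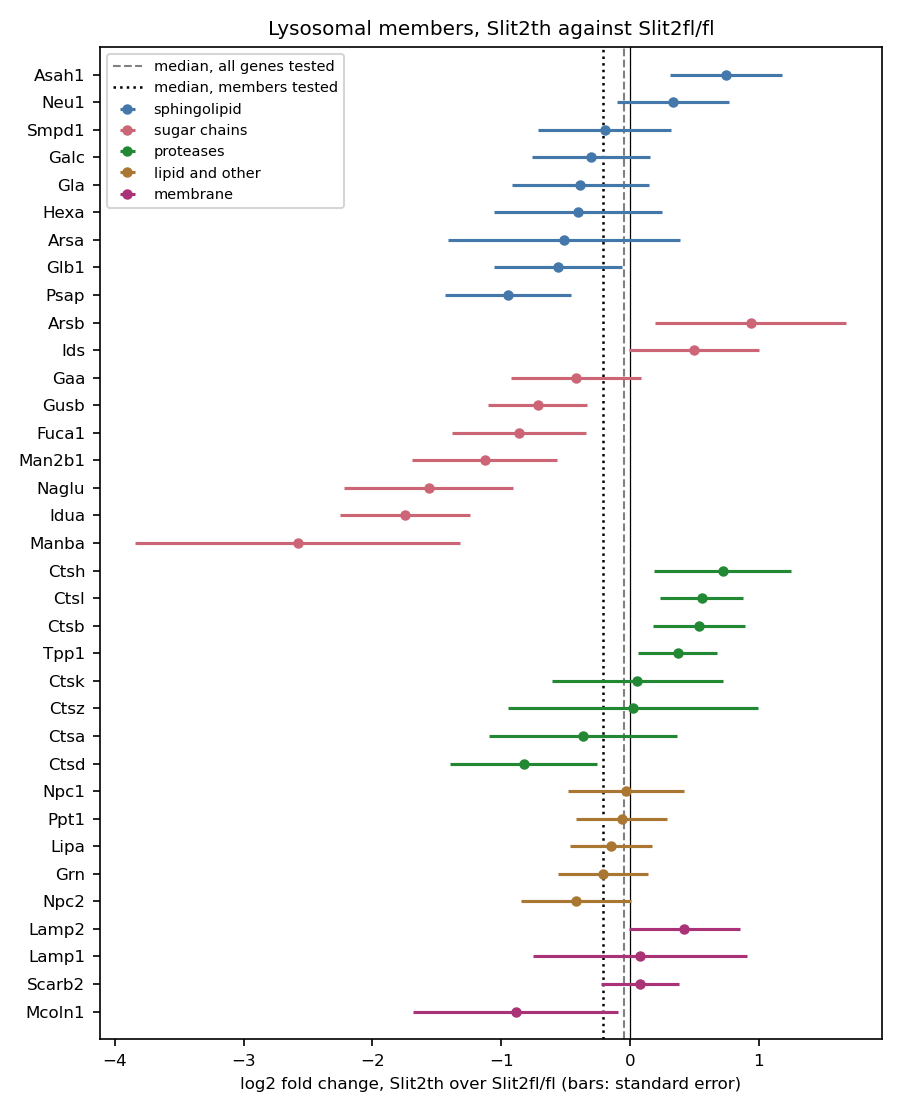
Log2 fold change (LFC) of the 35 tested lysosomal genes (x axis, Slit2th over Slit2fl/fl, points with SE as bars), grouped and colored by role, with dashed and dotted lines at the medians of all tested genes (-0.05) and of these genes (-0.21). Points lie on both sides of 0 in 4 of the 5 roles, 13 above and 22 below, and all 5 of the lipid and other role lie below it.

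Acid ceramidase, the product of Asah1 (ENSMUSG00000031591, minus strand of chromosome 8 from 41340197 to 41374773 of GRCm38), splits ceramide into sphingosine and a fatty acid. Asah1 stood at 21.7, 51.8 and 63.6 CPM in the Slit2fl/fl libraries and at 70.4, 83.8 and 74.4 CPM in the Slit2th libraries. The groups did not overlap, and the lowest value was that of Slit2fl/fl replicate 1. The means were 45.7 ± 21.6 and 76.2 ± 6.88 CPM (SD, n = 3 each), an LFC of 0.74 (SE 0.44, adjusted p = 0.529 by edgeR's quasi-likelihood test). Without Slit2fl/fl replicate 1 the LFC was 0.40, and without replicate 1 of both groups 0.44. The list was built around Asah1 with its values in these same libraries known, so its own direction is not independent evidence, and it did not pass the adjusted threshold here.

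Of the 8 other sphingolipid genes, 7 had an LFC below 0. Psap (chromosome 10, 60277627 to 60302597) encodes prosaposin, the precursor of the 4 saposins that present sphingolipids to their hydrolases, among them the one that assists acid ceramidase. Psap stood at 1288, 417 and 403 CPM in Slit2fl/fl and at 383, 399 and 310.4 CPM in Slit2th. Slit2fl/fl replicate 1 was far above every other library, and the groups only just failed to overlap, with 399 CPM in Slit2th replicate 2 against 403 CPM in Slit2fl/fl replicate 3. The LFC of Psap was -0.95 (SE 0.49, adjusted p = 0.495 by edgeR's quasi-likelihood test), or -0.17 without Slit2fl/fl replicate 1. Neu1, a sialidase, had the other positive value of the 9, 0.34 (SE 0.43). The other 6 had negative values, from -0.20 for Smpd1 (acid sphingomyelinase, which makes ceramide) over -0.30 for Galc (galactosylceramidase), -0.38 for Gla (alpha-galactosidase A), -0.40 for Hexa (the alpha subunit of beta-hexosaminidase) and -0.51 for Arsa (arylsulfatase A) to -0.56 for Glb1 (beta-galactosidase), and none of these 6 passed the unadjusted threshold. The median of the 9 was -0.38, and 0.26 without Slit2fl/fl replicate 1.

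Among the 9 enzymes that degrade glycosaminoglycans, glycoproteins and glycogen, 7 had negative values and the median was -0.86, the lowest of the 5 roles. Idua (chromosome 5, 108660331 to 108684557) encodes alpha-L-iduronidase, which removes iduronic acid from heparan and dermatan sulfate. It stood at 456, 217 and 132 CPM in Slit2fl/fl and at 57.2, 112 and 70.4 CPM in Slit2th. All 3 Slit2th libraries lay under the lowest Slit2fl/fl library, and Slit2fl/fl replicate 1 was again the highest. Its means were 268 ± 168 and 79.8 ± 28.5 CPM (SD, n = 3 each) and its LFC was -1.75 (SE 0.51, unadjusted p = 0.00711, adjusted p = 0.422, both by edgeR's quasi-likelihood test). Leaving out the 2 libraries numbered 1, it was -0.95 (adjusted p = 0.0855 by edgeR's quasi-likelihood test). The exons of Idua overlap those of Slc26a1 and Dgkq on the opposite strand, and the sources do not say if strand was used in counting, so reads of these genes cannot be told apart without it. The same limit holds for Ctsa, Ctsb, Ctsl, Ctsz, Lamp1, Hexa, Arsa, Arsb, Galc, Grn, Npc1 and Ppt1, whose exons also overlap genes on the opposite strand. The exons of Ctsd, Ctsl and Glb1 overlap a gene on the same strand, where strand would not separate the reads.

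Naglu, the N-acetylglucosaminidase of heparan sulfate degradation (chromosome 11, 101070012 to 101077672), was low throughout, with 14.1, 4.53 and 6.24 CPM in Slit2fl/fl against 2.64, 1.90 and 3.94 CPM in Slit2th. Its groups did not overlap, but the Slit2th values were near the 3-count floor. The LFC was -1.56 (SE 0.65, unadjusted p = 0.0398, adjusted p = 0.459 by edgeR's quasi-likelihood test), or -0.91 without replicate 1 of both groups. Gusb, the beta-glucuronidase of the same pathway (chromosome 5, 129989011 to 130003049), stood at 33.2, 20.7 and 27.2 CPM in Slit2fl/fl and at 16.7, 14.8 and 18.0 CPM in Slit2th. It too was lower in every Slit2th library, with an LFC of -0.72 (SE 0.39, adjusted p = 0.508 by edgeR's quasi-likelihood test) that was -0.57 without replicate 1 of both groups and ranged from -0.87 to -0.47 over the settings tried.
Ids, the iduronate 2-sulfatase that acts 1 step before alpha-L-iduronidase, stood at 51.1, 192 and 224 CPM in Slit2fl/fl and at 242, 214 and 203 CPM in Slit2th. Slit2fl/fl replicate 1 alone was low, and without replicate 1 of both groups the LFC of 0.50 (SE 0.50) became -0.01. The arylsulfatase Arsb had the other positive value, 0.94 (SE 0.74). Negative values were found for Man2b1 (alpha-mannosidase, -1.13), Fuca1 (alpha-fucosidase, -0.86), Gaa (the glycogen-degrading acid alpha-glucosidase, -0.42) and Manba (beta-mannosidase, -2.58). For Manba this rested on 1 library, with 27.8 CPM in Slit2fl/fl replicate 3 and 0.958 to 1.90 CPM in the other 5, and without that library the LFC was 0.45.

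Of the 8 proteases, 6 had higher values in Slit2th, with a median of 0.21. Ctsb (chromosome 14, 63122462 to 63145923) and Ctsl (chromosome 13, 64359337 to 64370890) encode the cysteine proteases cathepsin B and cathepsin L. Ctsb stood at 908, 804 and 657 CPM in Slit2fl/fl and at 1591, 911 and 933 CPM in Slit2th. The groups only just failed to overlap, at 908 CPM in Slit2fl/fl replicate 1 and 911 CPM in Slit2th replicate 2, and Slit2th replicate 1 was far above the rest. The LFC was 0.54 (SE 0.36, adjusted p = 0.565 by edgeR's quasi-likelihood test), or 0.23 without Slit2th replicate 1. For Ctsl the values were 492, 713 and 658 CPM in Slit2fl/fl against 816, 888 and 1035 CPM in Slit2th. No Slit2th library overlapped the controls, with an LFC of 0.56 (SE 0.32, adjusted p = 0.527 by edgeR's quasi-likelihood test), or 0.47 without replicate 1 of both groups (adjusted p = 0.170).
Tpp1 (chromosome 7, 105744811 to 105752235), the tripeptidyl peptidase 1 that is lost in a childhood neuronal ceroid lipofuscinosis, stood at 184, 207 and 237 CPM in Slit2fl/fl and at 303, 256 and 252 CPM in Slit2th. Its groups did not overlap and its LFC was 0.37 (SE 0.31, adjusted p = 0.632 by edgeR's quasi-likelihood test), or 0.18 without replicate 1 of both groups. The aminopeptidase cathepsin H (Ctsh) had a value of 0.72 (SE 0.53) at 4.54 to 18.5 CPM, and Ctsk, the collagen-degrading cathepsin K of osteoclasts, one of 0.06 (SE 0.66) at 2.64 to 10.1 CPM.
The aspartic protease cathepsin D (Ctsd) went the other way, with 792, 212 and 211 CPM in Slit2fl/fl against 331, 179 and 177 CPM in Slit2th, an LFC of -0.83 (SE 0.57). It followed Psap in being highest in Slit2fl/fl replicate 1, and was 0.12 without that library. Cathepsin Z (Ctsz) was high in both replicates numbered 1, with 107, 26.5 and 19.9 CPM in Slit2fl/fl against 134, 11.9 and 13.5 CPM in Slit2th. Ctsa, which encodes the protective protein that stabilizes beta-galactosidase and neuraminidase, followed the same pattern with 115, 31.1 and 38.6 CPM and 103, 19.0 and 23.7 CPM. Their LFCs of 0.02 and -0.37 became -0.88 and -0.72 without replicate 1 of both groups.

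**Figure D2:**
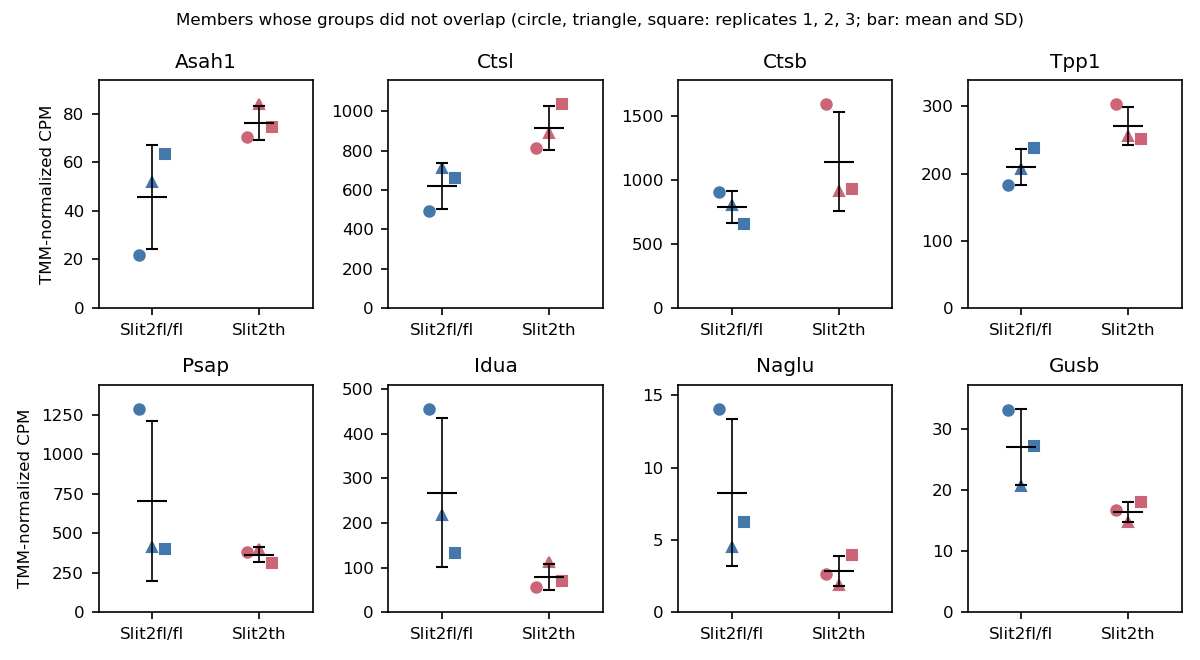
TMM-normalized CPM of the 8 lysosomal genes whose groups did not overlap, with each library as a point (circle, triangle and square for replicates 1, 2 and 3) and the mean with SD as a bar, on linear axes that start at 0. In the upper row the Slit2th libraries lie above all Slit2fl/fl libraries (Asah1, 70.4 to 83.8 against 21.7 to 63.6 CPM), and in the lower row below them, with Slit2fl/fl replicate 1 the highest point of all 4 genes.

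The 5 genes of lipid release, cholesterol export and progranulin function had LFCs from -0.42 to -0.03. Lipa, the acid lipase that frees cholesterol and fatty acids from lipoprotein lipids, stood at 489.6, 342 and 370.1 CPM in Slit2fl/fl and at 415, 332 and 340.2 CPM in Slit2th, an LFC of -0.15 (SE 0.32). Ppt1, a palmitoyl-protein thioesterase, had a value of -0.06 (SE 0.35), and Npc1 and Npc2, which pass cholesterol out of the lysosome, had -0.03 and -0.42 (standard errors 0.45 and 0.43). Grn, whose product progranulin is cut into granulins in the lysosome, had -0.21 (SE 0.35). None of the 5 LFCs was larger than its SE, and the range of the groups overlapped for each.

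The membrane proteins did not move as 1 group either. Lamp2 (X chromosome, 38401357 to 38456454) stood at 168, 503 and 420.1 CPM in Slit2fl/fl and at 408, 511 and 540.2 CPM in Slit2th. Slit2fl/fl replicate 1 was the low library, as for Asah1 and Ids, and the LFC of 0.42 (SE 0.43) was 0.07 without it. Lamp1 (chromosome 8, 13159161 to 13175338) was instead high in both replicates numbered 1, with 171, 40.8 and 91.4 CPM in Slit2fl/fl against 257, 31.4 and 34.9 CPM in Slit2th. Its LFC was 0.08 (SE 0.83) with all libraries, -1.61 without Slit2th replicate 1 and -1.01 without replicate 1 of both groups (adjusted p = 0.136 by edgeR's quasi-likelihood test). The 2 related glycoproteins thus had values of opposite order in the replicates numbered 1. Scarb2, the receptor LIMP-2 that carries glucocerebrosidase to the lysosome, was the steadiest of all, with 842, 879 and 955 CPM in Slit2fl/fl against 865, 977 and 980.2 CPM in Slit2th. Its LFC was 0.08 (SE 0.30) and stayed between 0.00 and 0.14 in the settings tried. Mcoln1, the calcium channel mucolipin 1, stood at 29.7, 5.82 and 2.84 CPM in Slit2fl/fl and at 7.04, 8.57 and 5.63 CPM in Slit2th, and its value of -0.89 (SE 0.79) became 0.72 without replicate 1 of both groups. Tfeb, the transcription factor of the lysosomal program, had counts of 7, 2 and 0 in Slit2fl/fl against 1, 1 and 0 in Slit2th, too few to test.

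Levels between genes were compared per kilobase of merged exon length, in CPM per kb. Psap (256 ± 185), Ctsd (172 ± 143), Scarb2 (142 ± 9.17), Ctsb (130.5 ± 20.9) and Ctsl (95.7 ± 17.8) were the highest of the 35 in Slit2fl/fl (mean ± SD, n = 3). In Slit2th the order was Ctsb (189 ± 63.9), Scarb2 (149.7 ± 10.4), Ctsl (141 ± 17.2), Psap (133 ± 17.2) and Ctsd (97.3 ± 37.6), so the same 5 genes led in both groups and neighbors in the Slit2th order did not differ beyond their spread. In Slit2fl/fl, where the SD of Psap and Ctsd reflects replicate 1, the first 4 did not differ beyond their spread. Asah1 held place 18 in Slit2fl/fl with 13.5 ± 6.37 CPM per kb and place 14 in Slit2th with 22.5 ± 2.03 CPM per kb. Idua went from place 6 (63.9 ± 39.9) to place 17 (19.0 ± 6.79). Arsb, Arsa, Galc and Manba were the lowest in Slit2fl/fl, at 1.02 to 1.44 CPM per kb.

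Summed over the 36 genes, lysosomal transcripts made up 6985, 5174 and 5107 CPM in the Slit2fl/fl libraries and 6612, 5390.0 and 5493 CPM in the Slit2th libraries. The 2 libraries numbered 1 held the highest sums and the groups overlapped. The proteases summed to 2616, 2006 and 1831 CPM in Slit2fl/fl and to 3299, 2276 and 2459 CPM in Slit2th, and the membrane proteins to 1210.4, 1429 and 1469 CPM and to 1537, 1528 and 1561 CPM. The groups overlapped for the proteases, while for the membrane proteins all 3 Slit2th sums lay above the Slit2fl/fl sums. That order was lost without Lamp1, which held 257 CPM in Slit2th replicate 1, and also without Lamp2. The genes of other sugar chains had the opposite order, with 730.1, 534 and 517 CPM in Slit2fl/fl against 432, 409 and 357 CPM in Slit2th. That order rested on Idua, with 456, 217 and 132 CPM of the Slit2fl/fl sums and 57.2, 112 and 70.4 CPM of the Slit2th sums. Without Idua the sums of the groups overlapped. Sphingolipid genes summed to 1525 CPM in Slit2fl/fl replicate 1, most of it Psap, and to 484 to 595 CPM in the other 5 libraries.

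**Figure D3:**
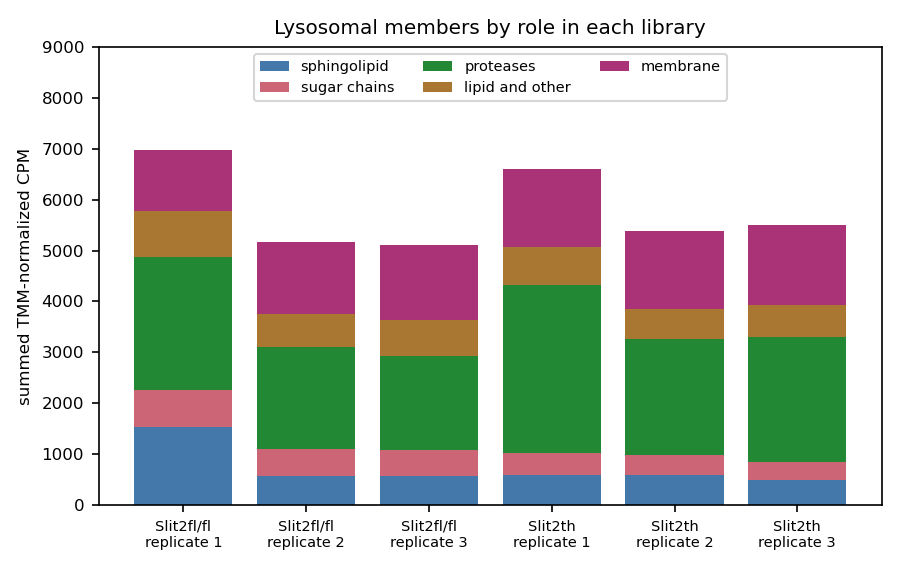
Summed TMM-normalized CPM of the lysosomal genes in each library (1 bar per library, stacked by role, axis from 0). The bars of the 2 libraries numbered 1 are the tallest (6985 and 6612 CPM), and the other 4 lie between 5107 and 5493 CPM.

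The libraries numbered 1 were described further, since many lysosomal genes stood apart in them. On the scale of log2(CPM + 1), replicate 1 minus the mean of replicates 2 and 3 had a median over the 35 genes of 0.57 in Slit2fl/fl and 0.15 in Slit2th, beside 0.04 and -0.19 over all genes tested. The difference was above 1 in both groups for 5 of the 35 (14.3%), against 6.53% of all genes, and these 5 were Ctsz (2.17 in Slit2fl/fl and 3.30 in Slit2th), Lamp1 (1.47 and 2.92), Ctsa (1.70 and 2.23), Hexa (1.63 and 1.79) and Fuca1 (1.28 and 1.18). Manba (-2.05), Arsb (-2.04), Ids (-2.00), Lamp2 (-1.45) and Asah1 (-1.36) were the 5 of 35 genes more than 1 below in Slit2fl/fl. Of all 12152 genes tested, 1825 were. For Manba the difference came from the high value of Slit2fl/fl replicate 3 (27.8 CPM), with 0.958 and 1.29 CPM in replicates 1 and 2. Without replicate 1 of both groups, 377 of 11473 genes (3.29%) had an adjusted p under 0.05 by edgeR's quasi-likelihood test, and 0 of the 35 lysosomal genes did. At an unadjusted p under 0.05, Ctsl was then higher (1 of 35, 2.86%, against 7.12% of all genes) and 7 genes were lower (20%, against 10.3% of all genes), namely Idua, Lamp1, Ctsa, Ctsz, Fuca1, Gaa and Manba. The median LFC of the 35 was -0.10.

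**Figure D4:**
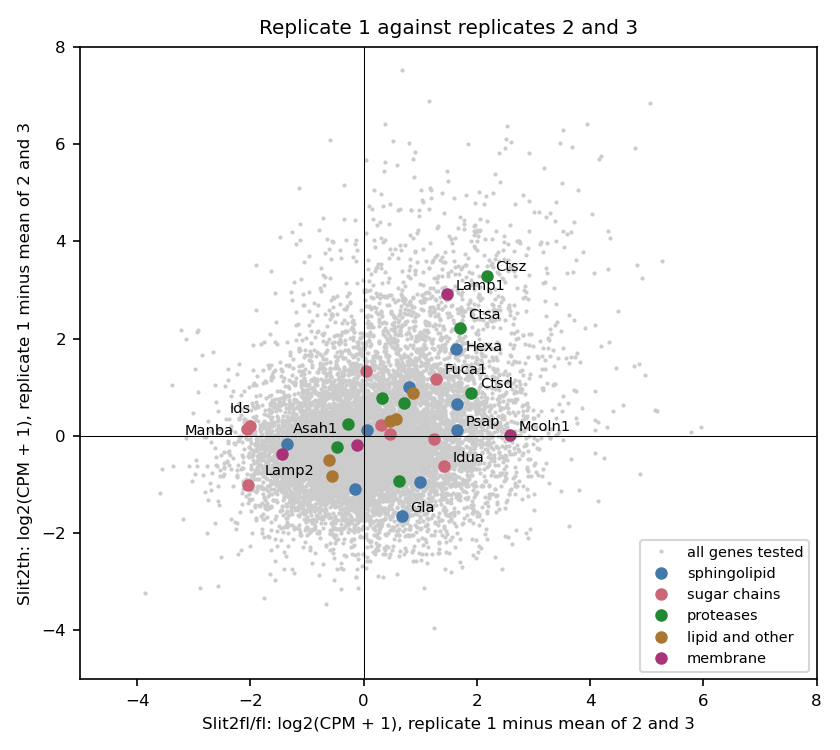
Difference of replicate 1 from the mean of replicates 2 and 3, in log2(CPM + 1), in Slit2fl/fl (x axis) and in Slit2th (y axis), for all 12152 tested genes (gray) and the 35 lysosomal genes (colored by role). Ctsz, Lamp1, Ctsa, Hexa and Fuca1 lie above 1 on both axes, while Asah1, Lamp2, Ids, Arsb and Manba lie below -1 on the x axis.

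The values also moved with the GC content of the transcripts. The longest transcripts of the 35 genes had a median GC content of 51.1% (38.3% to 59.8%), against 48.8% over all genes. Across the 35 genes the Spearman correlation of the LFC with GC content was -0.50, and across 12146 genes it was -0.34. These are correlations across genes of the same 6 libraries, and genes are not independent replicates. The 14 genes under 50% GC, among them Asah1 (43.5%), Ctsl (44.3%) and Lamp2 (38.7%), had a median LFC of 0.07 with 8 positive, and the 21 genes at or over 50%, among them Idua (54.2%), Psap (54.7%) and Naglu (59.8%), had a median of -0.42 with 5 positive. With offsets that removed the trend with GC content in each library, the correlation across the 35 genes was -0.08, their median LFC 0.04 and 18 of 35 were positive. Asah1 was then at 0.65, Ctsl at 0.45, Ctsb at 0.66, Psap at -0.46, Naglu at -0.92 and Idua at -1.31, each with its direction kept. Smpd1 (0.28), Hexa (0.09), Arsa (0.08), Ctsa (0.11) and Grn (0.20) turned from negative to positive. The deviation of Slit2fl/fl replicate 1 from replicates 2 and 3 had a Spearman correlation with GC content of 0.68 across the 35 genes and 0.54 across all genes. For Slit2th replicate 1 it was 0.48 and 0.14. The part of GC content in the differences between the genotypes was not tested beyond these offsets.

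**Figure D5:**
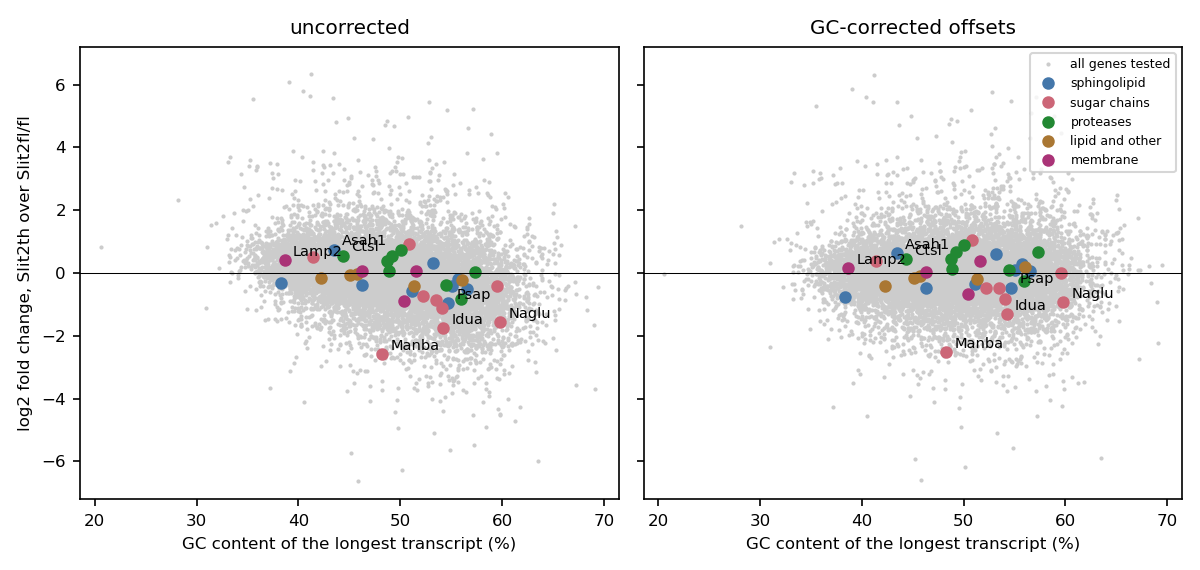
Log2 fold change (Slit2th over Slit2fl/fl, y axis) against GC content of the longest transcript in percent (x axis) for all tested genes (gray) and the 35 lysosomal genes (colored by role), without (left) and with (right) offsets that remove the GC trend in each library. On the left the lysosomal genes slope downward (Spearman -0.50), and on the right they do not (-0.08), with Idua and Manba still low.

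The genes that carry GTCACGTG in the printed windows did not stand out on the higher side. The 8 genes Arsa, Ctsa, Ctsd, Gla, Glb1, Lamp1, Mcoln1 and Naglu had LFCs from -1.56 (Naglu) to 0.08 (Lamp1), with a median of -0.54 and 1 positive value. The 23 tested genes whose promoters lacked it had a median of -0.20 with 9 positive. Asah1 (0.74), Ctsb (0.54), Ctsh (0.72) and Npc1 (-0.03), for which no promoter was found, are in neither set. With the GC-corrected offsets the medians were -0.30 and 0.04, and the transcripts of the 8 genes had a median GC content of 53.0%, against 51.3%. Whether the 2 sets differ was not tested.
Of the factors that bind this element, Tfe3 was measured at 30.7, 14.9 and 24.4 CPM in Slit2fl/fl against 9.68, 10.00 and 16.3 CPM in Slit2th, an LFC of -0.96 (SE 0.46), and Mitf at 22.0, 13.6 and 9.65 and 8.80, 18.1 and 18.6 CPM, an LFC of 0.01 (SE 0.49). The groups overlapped for both, and Tfec had no count in any library.

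Beyond the 36 genes, 149 genes of 7 related lists were read from the same comparison, of which 140 were tested. At an unadjusted p under 0.05, 5 of them were higher and 11 lower (3.99% and 6.78% of all genes were). None passed after adjustment by edgeR's quasi-likelihood test, and their median LFC was -0.19. In 13 of the 140 all Slit2th libraries exceeded all Slit2fl/fl libraries, and in 16 they lay below (8.72% and 9.74% of all genes). Among 30 other hydrolases and cofactors (median -0.23), 3 were higher and 2 lower. Ctss, the cathepsin S of antigen-presenting cells, stood at 4.15, 5.82 and 4.54 CPM in Slit2fl/fl and at 45.8, 10.5 and 16.3 CPM in Slit2th. Its groups did not overlap and its highest value was in Slit2th replicate 1, with an LFC of 2.30 (SE 0.63) and 1.34 without replicate 1 of both groups. Ctsc, the dipeptidyl peptidase cathepsin C that activates the serine proteases of immune cells, stood at 18.8, 42.1 and 51.7 CPM and at 84.5, 98.1 and 82.2 CPM in the same order. It differed by 1.24 (SE 0.43) and by 0.93 without replicate 1 of both groups (adjusted p = 0.0545 by edgeR's quasi-likelihood test). Gm2a, the activator that lets beta-hexosaminidase reach ganglioside GM2, went the other way, with 68.0, 18.1 and 37.5 CPM in Slit2fl/fl against 15.0, 10.00 and 13.5 CPM in Slit2th. Its groups did not overlap and its LFC was -1.70 (SE 0.53), or -1.26 without replicate 1 of both groups.
Macrophage markers were read beside these cathepsins. Of 18 macrophage markers 12 were tested, and 6 were higher and 0 lower at an unadjusted p under 0.05 (3.99% and 6.78% of all genes were). Of these 6, Mrc1, Itgam and Ptprc had 0 to 9 counts in each library. C1qa, another of them, had an LFC of -0.68 without Slit2th replicate 1. Adgre1, also among the 6, had 2, 1 and 2 counts in Slit2fl/fl and 7, 13 and 13 counts in Slit2th. Its LFC of 2.95 (SE 0.67) was 2.79 without replicate 1 of both groups. Among the 12 tested markers, 11 LFCs were above 0 and 1 was below it, with a median of 1.73. The 18 markers summed to 37.5 to 130 CPM in Slit2fl/fl and to 131 to 673 CPM in Slit2th. The highest sum was that of Slit2th replicate 1, where Lyz2, Aif1 and C1qa stood at 284, 181 and 73.9 CPM. Csf1r and Fcgr1 had 0 counts in that library. In Slit2th replicates 2 and 3, Aif1 stood at 0 and 0.563 CPM and C1qa at 1.90 and 0 CPM. Ctss, Ctsb, Ctsz and Lamp1 were highest in Slit2th replicate 1, while Psap, Ctsd, Ctsa and Hexa were highest in Slit2fl/fl replicate 1. Lyz2, a lysozyme of macrophages and granulocytes and the highest of these markers, stood at 37.0, 42.7 and 17.0 CPM in Slit2fl/fl and at 284, 69.0 and 78.9 CPM in Slit2th. Mrc1 had 0 counts in every Slit2fl/fl library and 3, 3 and 9 counts in Slit2th, while Cd163 had 1 count in Slit2fl/fl replicate 2 and 0 in the other 5 libraries. The 17 fibroblast markers in the table summed to 2688 to 3632 CPM in Slit2fl/fl and to 3612 to 5148 CPM in Slit2th. Of the 14 tested, 3 were higher and 0 lower at the same threshold, against 3.99% and 6.78% of all genes. The 15 proliferation markers summed to 489 to 626 CPM in Slit2fl/fl and to 242 to 442 CPM in Slit2th. All 15 were tested, and 0 were higher and 4 lower, against 3.99% and 6.78% of all genes. The part of these cells in the lysosomal values was not tested.

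Of the 17 subunits of the vacuolar proton pump that were tested (median -0.18), 0 were higher and 2 lower at an unadjusted p under 0.05. Of all genes 3.99% and 6.78% were, and the lists below are read against the same shares. Atp6v0e2, an e subunit of the membrane sector, stood at 592, 122 and 69.3 CPM in Slit2fl/fl and at 34.3, 57.1 and 33.8 CPM in Slit2th. The groups did not overlap, Slit2fl/fl replicate 1 was the highest library by far, and the LFC of -2.64 (SE 0.76) was -1.08 without replicate 1 of both groups. Atp6v0d1, the d subunit, had 87.2, 39.5 and 52.2 CPM and 27.3, 23.8 and 15.8 CPM, an LFC of -1.43 (SE 0.44) and of -1.21 without replicate 1 of both groups (adjusted p = 0.0607 by edgeR's quasi-likelihood test). Of the 16 other membrane proteins (median 0.02), 0 passed in either direction. Of the 19 tested genes of sorting to the lysosome (median -0.08), 0 were higher and 2 lower at that threshold, Ap1m1 and Ap1s1. These 2 encode subunits of the AP-1 adaptor that buds transport vesicles from the trans-Golgi network. Ap1m1 stood at 29.1, 19.4 and 13.1 CPM in Slit2fl/fl and at 11.4, 2.86 and 9.01 CPM in Slit2th, an LFC of -1.44 (SE 0.59), or -1.09 without Slit2fl/fl replicate 1. Ap1s1 stood at 97.1, 17.5 and 30.7 CPM in Slit2fl/fl and at 22.9, 15.2 and 16.9 CPM in Slit2th, an LFC of -1.42 (SE 0.62) that was -0.39 without Slit2fl/fl replicate 1, its highest library. The AP-1 subunit genes Ap1b1 and Ap1g1 had values of -0.08 (SE 0.65) and 0.17 (SE 0.38).

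Of 18 tested genes of the TFEB family and of nutrient sensing (median -0.17), 1 was higher and 3 lower at an unadjusted p under 0.05. Of all genes 3.99% and 6.78% were. Fnip1, the folliculin partner at the lysosomal surface, stood at 60.4, 246 and 157 CPM in Slit2fl/fl and at 311, 431 and 388 CPM in Slit2th. The groups did not overlap, and its LFC was 1.29 (SE 0.49, adjusted p = 0.429 by edgeR's quasi-likelihood test), or 1.01 without replicate 1 of both groups (adjusted p = 0.0266), past the threshold. Tsc2, which restrains mTORC1, stood at 23.3, 3.23 and 10.2 CPM in Slit2fl/fl and at 3.52, 2.86 and 1.13 CPM in Slit2th, an LFC of -2.33 (SE 0.79), or -1.45 without Slit2fl/fl replicate 1. Lamtor1, which anchors mTORC1 signaling to the lysosome, had 506, 53.7 and 67.0 CPM in Slit2fl/fl against 46.7, 45.2 and 53.5 CPM in Slit2th, and its LFC of -2.11 (SE 0.80) was -0.31 without Slit2fl/fl replicate 1. Its partner Lamtor2 was the third, at -2.08 (SE 0.85) and at -0.50 without that library. Slit2fl/fl replicate 1 was the highest library of all 3 genes. Among 20 autophagy genes (median -0.41) 0 were higher and 1 was lower at the same unadjusted threshold, Gabarapl2, a member of the ATG8 family that coats autophagosomes. It stood at 226, 62.8 and 64.1 CPM in Slit2fl/fl and at 60.7, 41.4 and 29.9 CPM in Slit2th, an LFC of -1.43 (SE 0.57) that was -0.53 without Slit2fl/fl replicate 1.
Without replicate 1 of both groups, 5 of the 140 related genes passed the adjusted threshold of edgeR's quasi-likelihood test. Fnip1 was the 1 that was higher (0.714%, against 0.767% of all genes), and 4 were lower (2.86%, against 2.52% of all genes). These were Vamp8, a SNARE of vesicle fusion (-2.03, adjusted p = 0.0151), Gabarap, another ATG8 protein (-0.80, adjusted p = 0.0316), Rab7, the GTPase of late endosomes (-0.83, adjusted p = 0.0429), and Lamtor4 (-1.34, adjusted p = 0.0456). With all libraries their LFCs were -2.14, -0.38, -0.51 and -0.74 in the same order.

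Ceramide is also made and used outside the lysosome, and these 20 tested genes had a median of 0.01. At an unadjusted p under 0.05, 1 was higher and 1 lower (3.99% and 6.78% of all genes were). Acer3, the alkaline ceramidase of the Golgi and endoplasmic reticulum, stood at 7.35, 21.4 and 21.6 CPM in Slit2fl/fl and at 60.7, 30.5 and 33.8 CPM in Slit2th. All 3 Slit2th libraries exceeded the highest Slit2fl/fl library, as for Asah1 and for 8.72% of all genes. The LFC of Acer3 was 1.32 (SE 0.52, adjusted p = 0.440 by edgeR's quasi-likelihood test), or 0.57 without replicate 1 of both groups. Cers5, a ceramide synthase, stood at 297, 29.1 and 51.1 CPM in Slit2fl/fl and at 20.2, 23.3 and 27.6 CPM in Slit2th. Slit2fl/fl replicate 1 was again far above the rest, and the LFC of -2.40 (SE 0.79) was -0.67 without replicate 1 of both groups. The other ceramide synthases tested had values of 0.11 (Cers2), 0.52 (Cers4) and -0.05 (Cers6).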

How the data were processed

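According to the study's methods, TruSeq libraries were sequenced on an Illumina HiSeq and the authors aligned the reads to mm10 with HISAT2 (the labels' processing notes name GRCm39 instead), and they deposited the number of reads per gene as whole-number counts without normalization. The counting program, strand and annotation release are not given in the sources used here. Each of the 6 columns was matched to its library through its label. The analysis used edgeR 4.0.16 (R 4.3.3). A gene entered the test if 3 or more libraries reached a CPM of 1, library sizes were scaled by TMM, and the genotypes were compared with the quasi-likelihood test without covariates, adjusted over all genes by the Benjamini-Hochberg method (threshold 0.05). CPM means TMM-normalized counts scaled to the library total, so that precision follows from the depth given for each library and covers counting error only, as molecules carried no identifiers. A two-sided exact permutation test of 3 libraries against 3 cannot go below p = 0.1 and was not used for calls. DESeq2 1.42.0, limma 3.58.1 (voom), other normalizations and filters, a replicate block, GC and length offsets (loess, span 0.5) and libraries left out were the alternatives, and a newer edgeR fit was added after seeing the data. Each SE was back-calculated as the absolute LFC divided by the square root of the F statistic of edgeR's quasi-likelihood test. That test was checked on simulated counts.

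Of the gene identifiers, 20159 of 20173 were found in GENCODE M21 (GRCm38), the source of positions, exon lengths, GC content and overlaps. Promoters came from RefSeq (GRCm38.p6). The lysosomal genes, the related lists and the markers were chosen with earlier results of these data known. Values in every library are given for Asah1, Tfeb, Lamp1, Lamp2, the gene of each role with the highest mean CPM, and each gene with an unadjusted p under 0.05 or groups that did not overlap, and of each related list up to 3 genes with the smallest unadjusted p under 0.05. Ids, Ctsd, Ctsz, Ctsa, Mcoln1, Manba, Tfe3 and Mitf are given by library in addition, chosen after their values were seen. Endothelial and smooth muscle markers were low, with sums of at most 33.9 and 97.4 CPM in any library.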

Additional observations from a re-analysis of the deposited data

How the results depend on the processing

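Of the 35 lysosomal genes, 19 kept the sign of their log2 fold change in all 19 alternatives (9 higher and 10 lower in Slit2th), and 0 passed the adjusted threshold in any. Asah1 ranged from 0.40 to 1.08. The median of the 35 was -0.37 to 0.075 with libraries left out, above 0 only without Slit2fl/fl replicate 1, and 0.04 with GC-corrected offsets. The sphingolipid median of -0.38 became 0.08 with GC-corrected offsets. Genes past the adjusted threshold numbered 31 with DESeq2, 7 without the filter, and 0 to 377 with libraries left out, the last without replicate 1 of both groups, while leaving out Slit2fl/fl replicate 1 alone gave 1. Lysosomal genes at an unadjusted p under 0.05 numbered 2 in the comparison reported, both lower (5.71%, against 6.78% of all genes). With limma voom, GC-corrected offsets and length-corrected offsets 1 was lower (2.86%, against 5.13%, 5.86% and 5.74% of all genes). With libraries left out they numbered 1 to 8. The 5 without Slit2fl/fl replicate 2 or Slit2th replicate 1 were all lower (14.3%, against 9.09% and 8.8%). The 1 without Slit2th replicate 2 or 3, or without replicate 2 or 3 of both groups, was lower (2.86%, against 3.82%, 3.6%, 5.24% and 3.66%). The 8 without replicate 1 of both groups were 1 higher and 7 lower (2.86% and 20%, against 7.12% and 10.3%). Those whose groups did not overlap, 8 with all libraries, numbered 6 to 7 under other scalings or filters and 9 to 22 with libraries left out, with 19 without Slit2th replicate 1 (6 higher and 13 lower, against 18.2% and 18.4% of all genes), 13 without replicate 3 of both groups (7 and 6, against 15.8% and 19.7%), and 22 without replicate 1 of both groups (7 higher and 15 lower, against 22.6% and 24.9% of all genes). Without replicate 1 of both groups Slit2 passed, at -1.90 (adjusted p = 0.00689 by edgeR's quasi-likelihood test; -1.91 to -1.58 with libraries left out).

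Lamp1, at 0.08 with all libraries, was -0.023 with upper quartile scaling, -0.49 with limma voom and -1.61 to 0.72 with libraries left out (-1.01 without replicate 1 of both groups). Lipa ranged from -0.26 to 0.031 and Ids from -0.011 to 0.91. The causes were not tested. The replicate numbers were not taken as pairs, since the deviations of same-numbered libraries from their group means correlated at 0.29, 0.24 and 0.08 across genes, the last below 0.1. With the number as a replicate block, 4 lysosomal genes had an unadjusted p under 0.05 (Asah1 higher, 2.86% against 5.7% of all genes, and Idua, Fuca1 and Man2b1 lower, 8.57% against 7.58%), Lamp1 was at -0.37, and 0 of all genes passed after adjustment. The depth of 1255939 to 3155406 counts left genes such as Naglu, Manba and Tfeb near the floor of 3 counts.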
